A study of Mus musculus with 6 samples.

Results

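Glycogen is a branched store of glucose, and the 9 genes followed here encode enzymes that build it or take it apart in the cytosol and a subunit that controls them. They were listed by name (Pgm1, Pgm2, Ugp2, Gyg, Gys1, Gbe1, Ppp1r3c, Pygb and Pygl) and found among the 35968 genes with at least 1 transcript in the tables. Phosphoglucomutase turns glucose 6-phosphate into glucose 1-phosphate, UDP-glucose pyrophosphorylase activates it, glycogenin starts a chain, glycogen synthase lengthens it and the branching enzyme adds side chains. Glycogen phosphorylase removes glucose from the chain ends as glucose 1-phosphate, and targeting subunits of protein phosphatase 1 bring the phosphatase that activates the synthase to the glycogen particle.

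RNA was measured in MS-5 cells, a mouse bone marrow stromal line, cultured alone (MS-5 only, libraries MO1, MO2 and MO3) and in co-culture for 24 hr (libraries MC1, MC2 and MC3). The partner was SKM-1, a human acute myeloid leukaemia line, and SKM-1 cells still on the stroma were detached with dilute trypsin ahead of RNA extraction. Both groups were grown in the same RPMI medium with serum, glutamine and antibiotics, and the leukaemic cells were plated over the confluent stromal layer at 4 per stromal cell and 750000 per ml. The question was which stromal genes change when leukaemic cells are present. MS-5 is a single line, the labels do not say whether the 3 libraries of a group came from separate cultures, and p-values measure only the spread between these libraries.

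Total estimated counts lay between 23978881 and 35694987 per library. Of 16 stromal markers, 14 passed the filter on low counts and 0 passed edgeR's quasi-likelihood test, against 4.38% of all genes tested. An unadjusted p under 0.05 was found in 1, against 14.3% of all genes tested, and Dcn and Lum had at most 2 counts in any library. In 4 of the 14 (Col6a1, Pdgfra, Pdgfrb and Twist1) every co-culture library was higher in CPM than every MS-5 only library, against 11.6% of all genes tested. The summed level of the 16 was 12974 to 14032 TPM (a level per transcript length, with an equal total in every library) in MS-5 only and 12228 to 14948 TPM in co-culture. Of 21 leukocyte markers, 16 were tested and 7 rose in co-culture, where 3.71% of all genes tested were called higher. Each of these 7 passed the filter on low counts only through its co-culture libraries. Of the 7 markers that also passed it in MS-5 only, 0 were called by edgeR (1 higher and 1 lower had an unadjusted p under 0.05), with a median log2 fold change of -0.11. The summed level over all 21 went from 54.3 to 107 TPM in MS-5 only to between 128 and 509 TPM in co-culture, with MC2 highest. Libraries MO2 and MC3 stood apart from the rest, with 6.07% and 5.92% of counts from mitochondrial genes against 10.6% to 13.2%. In bulk RNA, fewer cells of a type and less RNA per cell cannot be told apart.

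In MS-5 only, Ugp2 was the most abundant of the 9 genes and Ppp1r3c was nearly without reads. Mean levels were 65.8 ± 10.8 TPM (SD, n = 3) for Ugp2, 41.6 ± 7.87 TPM for Gyg, 32.0 ± 5.88 TPM for Gys1 and 24.4 ± 1.59 TPM for Pgm1. Pygb had 21.6 ± 4.14 TPM, Gbe1 20.9 ± 2.05 TPM and Pgm2 19.1 ± 3.54 TPM. In this order the ranges over libraries were apart between Ugp2 and Gyg and between Gys1 and Pgm1, and they overlapped between Gyg and Gys1 and between each neighbouring pair of Pgm1, Pygb, Gbe1 and Pgm2, although Pgm1 was above Pgm2 in every library. Pygl and Ppp1r3c came last.
In co-culture, Gys1 had 77.9 ± 16.8 TPM (SD, n = 3), a range that overlapped that of Ugp2 with 67.0 ± 6.65 TPM. Pgm1 followed with 49.2 ± 4.82 TPM, above Gyg with 40.1 ± 4.23 TPM and Gbe1 with 38.6 ± 3.28 TPM in every library. Gyg and Gbe1 overlapped, and both were above Pygb with 22.1 ± 1.91 TPM. Pygb, Pgm2 with 18.2 ± 2.88 TPM and Pygl with 11.1 ± 8.82 TPM overlapped each with the next.

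**Figure D1:**
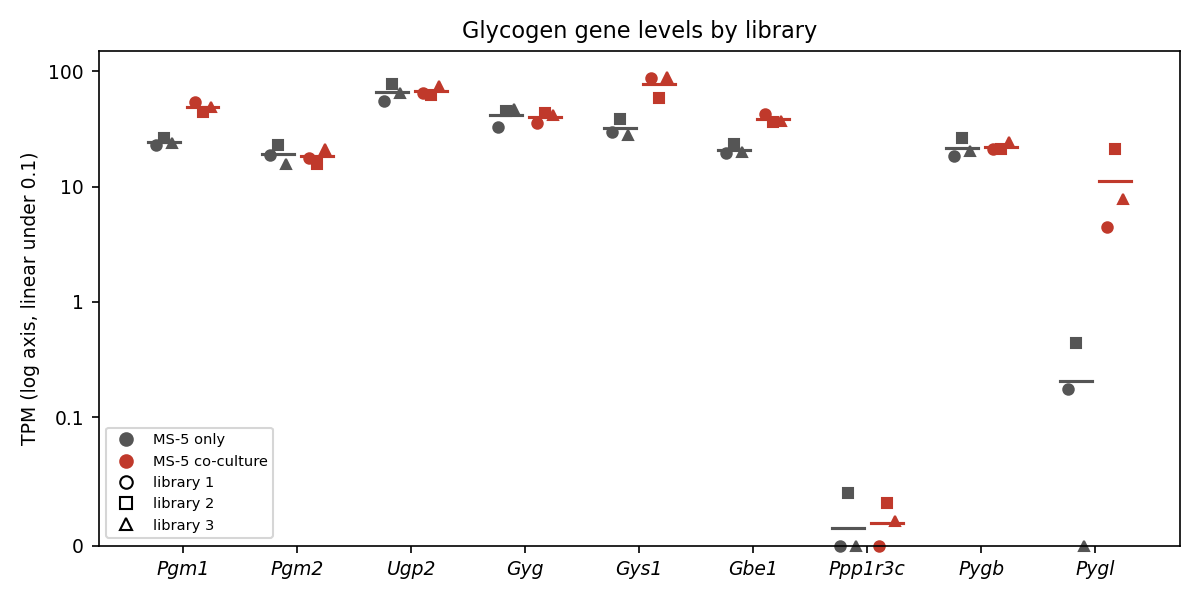
Level of the 9 glycogen genes in each library, in TPM on an axis that is logarithmic above 0.1 and linear below it, with MS-5 only in grey, co-culture in red and a line at each group mean (n = 3). Gys1, Gbe1, Pgm1 and Pygl lie higher in all co-culture libraries, the groups of Pgm2, Ugp2, Gyg and Pygb overlap, and Ppp1r3c stays under 0.1 TPM.

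In co-culture Gys1 and Pygl rose, Pgm1 and Gbe1 had 2.04-fold and 1.94-fold higher levels that did not pass the test, and Pgm2, Ugp2, Gyg and Pygb showed no difference beyond the spread between libraries. The test was edgeR's quasi-likelihood test on estimated counts over 13221 genes, with p-values adjusted after Benjamini and Hochberg and called under 0.1, and log2 fold changes are given ± their standard error (SE). Of the 9 genes, 8 were tested and Ppp1r3c was not. Pygl passed the filter on low counts only through its co-culture libraries. The call of Pygl is therefore a description, and of the other 7 genes 1 was called, Gys1, against 4.38% of all genes tested, of which 3.71% were called higher in co-culture and 0.666% lower. An unadjusted p under 0.05 with a higher level in co-culture was found for 3 of the 7, Gys1, Pgm1 and Gbe1, and for 8.62% of all genes tested. The groups did not overlap, with co-culture higher, in the same 3 of the 7, and in 11.6% of the genes tested. The opposite order was seen in 0 of the 7 and in 9.60% of the genes tested. The median log2 fold change was 0.048 over the 7 genes, 0.50 with Pygl and -0.02 over all genes tested.

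The promoters of the genes that were higher in co-culture are shown because the groups did not overlap in these 4 genes, from RefSeq's starts on GRCm38.p6. Each sequence runs 5′ to 3′ on the gene's strand over the 250 bases before the start, and capitals mark ACGTG on either strand. ACGTG is a form of the core of the hypoxia response element, and forms with other letters were not searched.
Gys1, chr7:45434589-45434838, + strand: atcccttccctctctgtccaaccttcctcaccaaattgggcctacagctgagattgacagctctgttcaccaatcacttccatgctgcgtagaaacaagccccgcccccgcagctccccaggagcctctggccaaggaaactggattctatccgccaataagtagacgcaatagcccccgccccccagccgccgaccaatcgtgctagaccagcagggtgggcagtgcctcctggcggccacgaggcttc
Gbe1, chr16:70313699-70313948, + strand: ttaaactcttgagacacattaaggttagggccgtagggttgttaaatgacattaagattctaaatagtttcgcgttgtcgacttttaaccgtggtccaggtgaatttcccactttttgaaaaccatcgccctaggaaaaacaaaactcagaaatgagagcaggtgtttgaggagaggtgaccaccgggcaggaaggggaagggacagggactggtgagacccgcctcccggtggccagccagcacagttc
Pgm1, chr4:99929201-99929450, + strand: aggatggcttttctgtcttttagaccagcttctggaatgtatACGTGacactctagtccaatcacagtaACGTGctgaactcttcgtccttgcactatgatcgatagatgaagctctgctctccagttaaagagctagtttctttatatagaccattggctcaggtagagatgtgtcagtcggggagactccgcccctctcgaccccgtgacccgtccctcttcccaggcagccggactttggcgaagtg
Pygl, chr12:70227684-70227933, - strand: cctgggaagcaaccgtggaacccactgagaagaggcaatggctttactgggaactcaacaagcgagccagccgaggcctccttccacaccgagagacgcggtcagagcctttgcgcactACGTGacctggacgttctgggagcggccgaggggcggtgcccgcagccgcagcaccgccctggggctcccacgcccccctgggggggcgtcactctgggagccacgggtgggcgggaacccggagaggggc
All 9 genes matched a RefSeq promoter window of 300 bases (250 before and 50 after the start), with 2 windows for Ugp2. Of the 32851 windows in the table, 19.6% held ACGTG on either strand and 7.15% held CACGTG, a palindrome that contains it. Gys1 and Gbe1 held none. Pgm1 held 2 sites, with first bases 208 and 181 bases before the start, and Pygl 1 site, 131 bases before it. The genes whose groups overlapped held it as well, with 1 site each in Pgm2, Pygb, Gyg and the first Ugp2 window, and Ppp1r3c, which was not tested, held 2. CACGTG was in Gyg and Ppp1r3c. A match is a description of letters in this window, and the data do not bear on its use.

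Pgm1 and Pgm2 encode phosphoglucomutases, and Pgm2 is known mainly for its action on pentose phosphates. Pgm1 (ENSMUSG00000025791.18, GRCm38 chromosome 4, 99929414 to 99987294) had 23.0, 26.1 and 24.0 TPM in MO1, MO2 and MO3 and 54.0, 44.4 and 49.2 TPM in MC1, MC2 and MC3. Every co-culture library was above every MS-5 only library. Normalized by TMM, its counts were 44.0 ± 8.43 CPM (counts scaled to library size; SD over 3 libraries) without SKM-1 cells and 89.8 ± 23.2 CPM with them, a log2 fold change of 1.03 ± 0.25 (SE; adjusted p = 0.104), just over the threshold. It passed in 9 of the 18 other fits, and its log2 fold change lay between 0.85 and 1.22 in all of them. Pgm2 (ENSMUSG00000029171.12, chromosome 5, 64092950 to 64128351) had 18.6, 22.8 and 15.8 TPM in MS-5 only and 17.8, 15.6 and 21.3 TPM in co-culture, and the groups overlapped. The 95% interval of its log2 fold change was -0.42 to 0.41.
Within a library the ratio of Pgm1 to Pgm2, both in TPM, does not depend on scaling between libraries. It was 1.24, 1.14 and 1.52 in MO1, MO2 and MO3 and 3.04, 2.84 and 2.31 in MC1, MC2 and MC3. This pair of genes was set side by side after their values were seen, and the ratio is given with no test.

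Ugp2 makes UDP-glucose, the sugar donor of glycogen synthase and of many other glucosyl transfers. Ugp2 (ENSMUSG00000001891.16, chromosome 11, 21321138 to 21371201) had 55.5, 77.0 and 64.9 TPM in MS-5 only and 64.4, 62.0 and 74.5 TPM in co-culture. All co-culture values lay inside the range of MS-5 only. Its log2 fold change was 0.05 ± 0.19 (SE; adjusted p = 0.974), with a 95% interval of -0.40 to 0.50, so that a change of up to 1.41-fold upward lay inside the interval. Its counts came from 2 coding transcripts, the shorter with 56.1% to 63.7% and the longer with 36.2% to 43.5% of the gene's counts in a library, and in both the groups overlapped.
Gyg encodes glycogenin, the protein primer on which a glycogen particle begins. Gyg (ENSMUSG00000019528.18, chromosome 3, 20122084 to 20155317) had 32.6, 45.1 and 47.0 TPM in MS-5 only and 35.3, 43.1 and 41.9 TPM in co-culture, with the lowest and the highest value both in MS-5 only. Its log2 fold change of -0.04 ± 0.27 (SE; adjusted p = 0.983) had a 95% interval of -0.69 to 0.60, the widest of the genes expressed in both groups.

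Gys1 encodes the glycogen synthase of muscle and most other tissues, and had the smallest p-value of the 9 genes. Gys1 (ENSMUSG00000003865.16, chromosome 7, 45434844 to 45456619) had 29.4, 38.7 and 27.8 TPM in MS-5 only and 87.1, 58.5 and 88.1 TPM in co-culture. The lowest co-culture library, MC2, lay above the highest MS-5 only library, MO2. Its normalized counts were 88.9 ± 9.42 CPM (SD, n = 3) and 219 ± 55.5 CPM, a log2 fold change of 1.30 ± 0.21 (SE; adjusted p = 0.0734) or 2.46-fold. The log2 difference was 1.33 within MO1, MO3, MC1 and MC2 and 1.16 between MO2 and MC3, the libraries with less mitochondrial RNA. Gys1 no longer passed without MO1 (adjusted p = 0.3), MO2 (0.149), MO3 (0.29) or MC2 (0.102), although its log2 fold change stayed between 1.06 and 1.43 with each library left out. Over all genes, the number called fell to 0 without any of the MS-5 only libraries. The main coding transcript held 99.0% to 99.9% of the gene's counts in each library.
The 5′ part of Gys1 overlaps Ruvbl2 on the opposite strand. Ruvbl2, a subunit gene of chromatin remodelling complexes, had a log2 fold change of -0.05 ± 0.28 (SE; adjusted p = 0.981). The library kit keeps strand, and whether the counting used it is not given in the sources used here. Pgm1 overlaps Itgb3bp in the same way, which had 107 to 140 counts per library and a log2 fold change of -0.11 (adjusted p = 0.937).

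Gbe1 encodes the branching enzyme, which moves pieces of the growing chain to make branch points. Gbe1 (ENSMUSG00000022707.16, chromosome 16, 70313949 to 70569716) had 19.4, 23.2 and 20.0 TPM in MS-5 only and 42.4, 36.5 and 36.9 TPM in co-culture. The groups were apart and each was narrow on this scale. Its normalized counts were 46.6 ± 9.04 CPM (SD, n = 3) and 90.4 ± 26.0 CPM, and the log2 fold change of 0.96 ± 0.26 (SE; adjusted p = 0.141) did not pass. The log2 difference was 1.03 within MO1, MO3, MC1 and MC2 and 0.74 between MO2 and MC3. It passed in 6 of the 18 other fits, with log2 fold changes from 0.78 to 1.17.
In a fit with MO2 and MC3 as a covariate, Gys1 (adjusted p = 0.0108), Gbe1 (adjusted p = 0.0105) and Pgm1 (adjusted p = 0.00934) passed as higher by edgeR's test. Pygl (adjusted p = 0.0228) did too, although it entered the test only through its co-culture libraries. Of all genes tested, 30.2% passed in that fit, and 13.9% passed as higher in co-culture. Gyg, Ugp2, Pgm2 and Pygb did not pass in that fit.

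**Figure D2:**
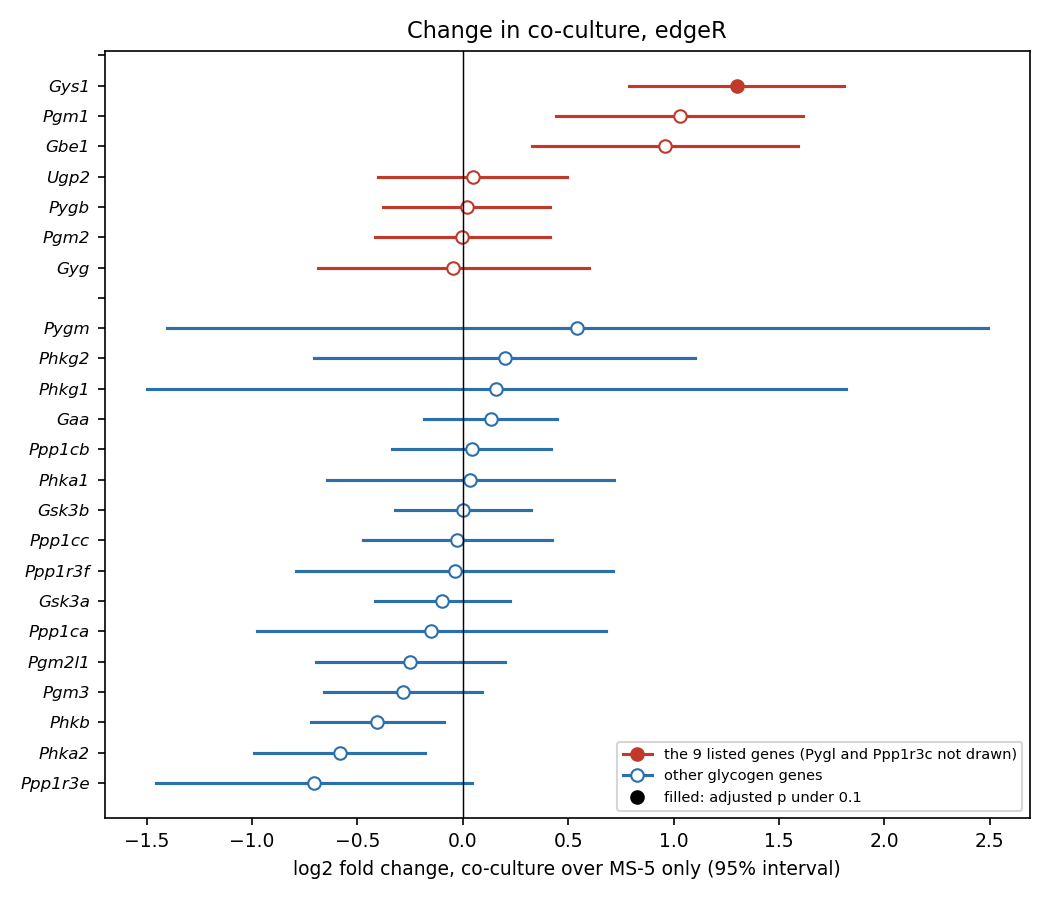
Log2 fold change in co-culture over MS-5 only from edgeR for the tested genes of the list (red, without Pygl) and other glycogen genes (blue, 1 not drawn), with 95% intervals over 6 libraries and filled points where the adjusted p-value was under 0.1. Gys1, at 1.30, is the filled point, Pgm1 and Gbe1 lie near 1 with intervals above 0, and the intervals of Ugp2, Pygb, Pgm2 and Gyg span 0.

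Pygb and Pygl encode the brain and liver forms of glycogen phosphorylase. Pygb (ENSMUSG00000033059.7, chromosome 2, 150786735 to 150831758) was the phosphorylase of MS-5 only, with 18.293, 26.235 and 20.235 TPM, against 21.017, 20.998 and 24.316 TPM in co-culture. The groups overlapped, with the highest value in MO2. Its log2 fold change was 0.02 ± 0.17 (SE; adjusted p = 0.991), with a 95% interval of -0.38 to 0.41. Pygm, the muscle form, had 2 to 20 counts in a library and a log2 fold change of 0.54 ± 0.81 (SE; adjusted p = 0.878).
The ratio of Gys1 to Pygb within a library, in TPM, was 1.61, 1.48 and 1.38 in MO1, MO2 and MO3 and 4.15, 2.79 and 3.62 in MC1, MC2 and MC3. That of Gys1 to Ugp2 was 0.487 ± 0.0522 (SD, n = 3) and 1.16 ± 0.205, and that of Gbe1 to Gyg 0.512 ± 0.0843 and 0.975 ± 0.196. In each of these ratios, chosen after the values were seen and given with no test, the groups were apart.

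**Figure D3:**
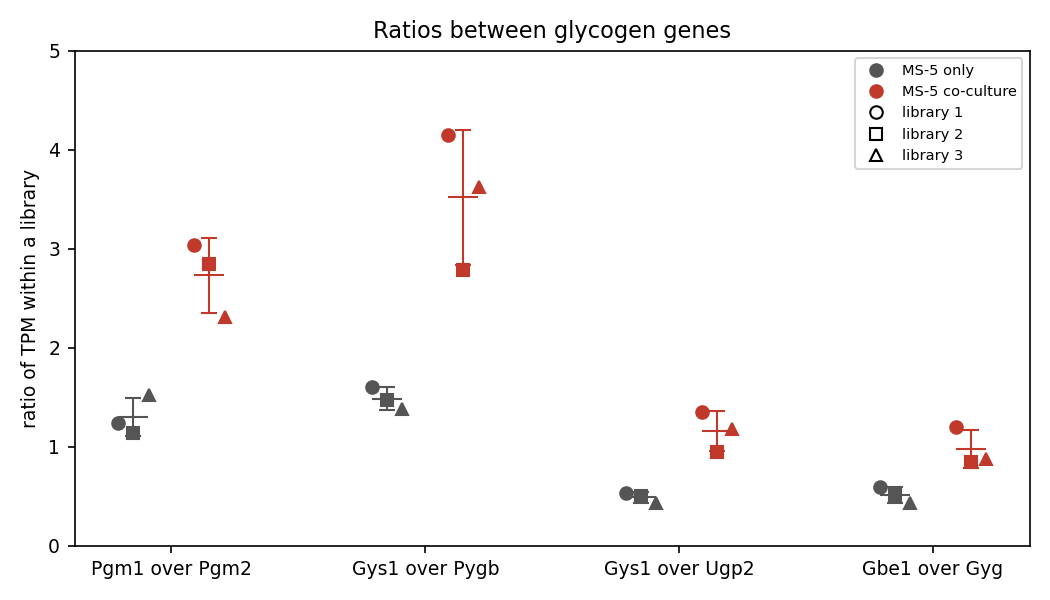
Ratio of the TPM values of 4 pairs of glycogen genes within each library, for MS-5 only (grey) and co-culture (red), with the mean and SD of each group (n = 3) beside the libraries. The co-culture libraries lie above the MS-5 only libraries in each pair, and Gys1 over Pygb goes from 1.49 ± 0.115 to 3.52 ± 0.685.

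Pygl (ENSMUSG00000021069.17, chromosome 12, 70190811 to 70231488) held 70, 331 and 97 counts in the co-culture libraries, against 2, 6 and 0 counts without SKM-1 cells. As a level per length these were 4.42, 21.1 and 7.77 TPM against 0.176, 0.439 and 0 TPM. The groups were apart, and MC2 held most of the rise. The log2 fold change was 5.93 ± 1.16 (SE; adjusted p = 0.0756), and since it rests on 8 counts in MS-5 only its size is poorly fixed, with a 95% interval of 3.16 to 8.71. The log2 difference was 5.74 within MO1, MO3, MC1 and MC2 and 3.47 between MO2 and MC3. Without MC2 its log2 fold change was 4.62 and the adjusted p-value 0.101. It also failed to pass without MO1 (0.3), MO2 (0.149) or MO3 (0.29).
The transcripts behind the Pygl counts differed between the groups. Its main coding transcript took 0, 1.06 and 0 estimated counts in MS-5 cells alone, where 5 of the 8 counts were assigned to a retained intron form. In co-culture the coding transcript took 42.7, 252 and 66.3 estimated counts, or 61.0% to 76.2% of the gene.
The excess of Pygl in each co-culture library is set beside that of the leukocyte markers that rose, which like Pygl passed the filter only through co-culture, so the values are a description. In CPM above the MS-5 only mean, MC2 exceeded the average of MC1 and MC3 by a factor of 5.72 for Pygl, and of 4.00 to 7.31 for the 7 leukocyte markers that rose (Ptprc, Spi1, Csf1r, Irf8, Laptm5, Coro1a and Vav1). Not all markers moved this way, as the log2 fold change was positive in 12 and negative in 4 of the 16 tested. The negative values were -0.73 in Itgal (adjusted p = 0.196, groups apart), -0.37 in Lyz2, -0.34 in Cd68 and -0.11 in Cd53. The factor was 0.793 for Gys1, 1.18 for Pgm1 and 1.36 for Gbe1. Of the leukocyte markers, Irf8 had 0 counts in each MS-5 only library. Of the 491 genes called higher in co-culture, 373 had a factor over 3. The authors' index held mouse transcripts only, and whether reads of SKM-1 RNA were counted as Pygl was not tested, so the Pygl values may not be those of MS-5 cells alone.

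**Figure D4:**
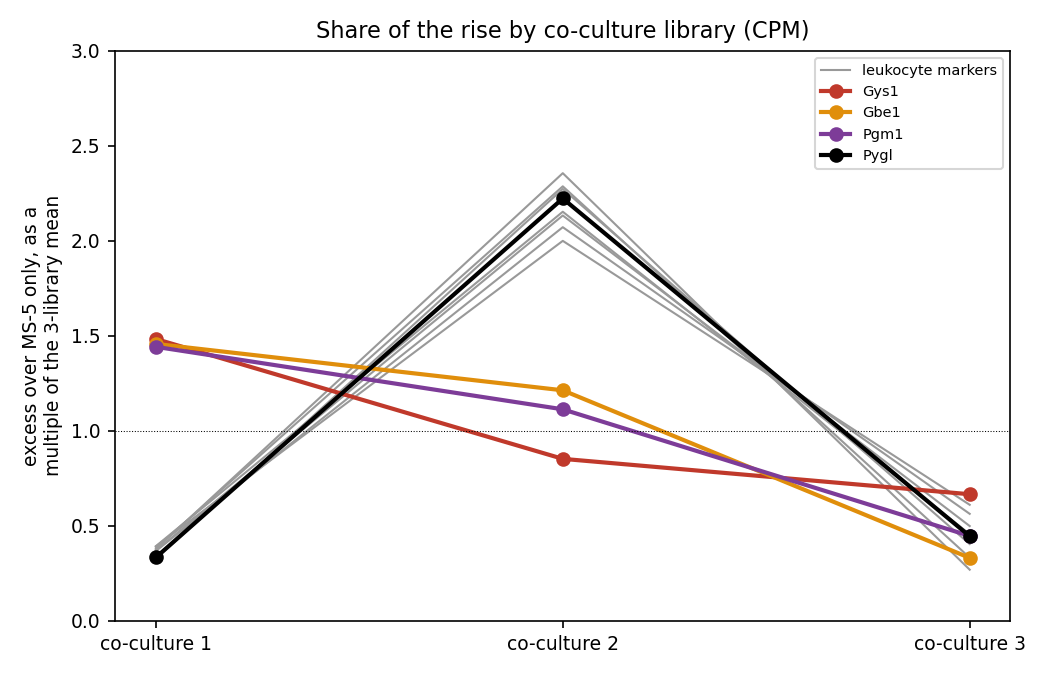
Excess of each co-culture library over the mean of MS-5 only, in CPM, as a multiple of the mean excess of the 3 co-culture libraries, for Gys1, Gbe1, Pgm1 and Pygl and for 7 leukocyte markers (grey); lines join the values of a gene and imply no order. Pygl and these 7 markers peak in MC2, whereas Gys1, Gbe1 and Pgm1 have their largest excess in MC1.

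Ppp1r3c encodes a subunit, also called protein targeting to glycogen, that binds protein phosphatase 1 to glycogen. Ppp1r3c (ENSMUSG00000067279.3, chromosome 19, 36731731 to 36736653) held 0, 2 and 0 counts without SKM-1 cells and 0, 2 and 1 with them. All were under the floor of 3 counts, which stands for 0.0873 to 0.136 CPM in a library, so that no difference was detectable at this depth. Of the other targeting subunits, Ppp1r3a, Ppp1r3b, Ppp1r3d and Ppp1r3g had at most 3 counts in any library. Those with reads to test were Ppp1r3e and Ppp1r3f.

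The remaining genes of glycogen metabolism, a list of 26 with phosphorylase kinase, synthase kinases, further targeting subunits, phosphatase catalytic subunits and lysosomal breakdown, held 0 genes that passed. Of these, 17 were tested by edgeR's quasi-likelihood test, which called 4.38% of all genes tested. An unadjusted p under 0.05 was found in 3, against 14.3% of all genes tested. DESeq2's Wald test called 3, against 1268 of the 13221 genes tested, and limma on log2(TPM + 0.5) called 0, against 356. The log2 fold change was positive in 8 and negative in 9, with a median of -0.03. The groups did not overlap on the CPM scale in 5 genes, against 21.2% of all genes tested.
Phka2 and Phkb, which encode regulatory subunits of phosphorylase kinase, the enzyme that activates phosphorylase, were lower in CPM in each co-culture library. Phka2 had 53.9 ± 7.07 CPM (SD, n = 3) and 35.9 ± 5.38 CPM, a log2 fold change of -0.58 ± 0.17 (SE; adjusted p = 0.16). Phkb had 58.3 ± 4.60 CPM and 44.0 ± 3.89 CPM, a log2 fold change of -0.40 ± 0.13 (SE; adjusted p = 0.215). The groups of Phka1 and of the catalytic subunit genes Phkg1 and Phkg2 overlapped.
Ppp1r3e, on 20 to 45 counts per library, and Pgm3, a mutase of amino sugar metabolism, were also lower in CPM in each co-culture library, with log2 fold changes of -0.71 (adjusted p = 0.381) and -0.28 (adjusted p = 0.502). In TPM the groups of Phka2, Phkb, Ppp1r3e and Pgm3 overlapped, with MC3 above MO1 and MO3 in each, and by limma on log2(TPM + 0.5) the adjusted p-values were between 0.787 (Ppp1r3e) and 0.9999 (Phka2 and Pgm3), with the same signs. When MO2 and MC3 were a covariate in edgeR, Phka2 (adjusted p = 0.0145), Phkb (adjusted p = 0.0254) and Pgm3 (adjusted p = 0.0713) passed as lower. In that fit 2164 of all 13221 genes tested passed as lower, so calls of this kind were common. Gys2, the liver glycogen synthase, and Stbd1, which binds glycogen for lysosomal breakdown, had 0 counts in all 6 libraries.

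For the member with the smallest p-value, Gys1, the tested genes of most similar pattern were ranked by the root mean square difference of centred log2 CPM over the 6 libraries. The nearest 5 were Slc2a1, a glucose transporter gene (0.103), P4ha1 (0.104), Mxi1 (0.111), Cntnap5a (0.114) and Ndrg1 (0.115). Pgm1 came at rank 21 (0.195) and Gbe1 at rank 43 (0.249). Ugp2, Pgm2, Pygb, Gyg and Pygl came at ranks 2585, 2907, 2822, 5482 and 13058.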

How the data were processed

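RNA-seq libraries of MS-5 cells only and MS-5 cells in co-culture (3 each, grouped and numbered by the sample labels) were analysed. The authors quantified reads with kallisto 0.43.0 against a GRCm38 cDNA index of mouse transcripts only. The deposited estimated count and TPM of each transcript were unfiltered and not pooled. TPM is the count per effective length scaled to a fixed total. The deposited lengths and effective lengths (other values, in bases) served for a length offset. Of 118489 transcripts, 116728 matched GENCODE M21 by version and length, and 1761 were left out.

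Estimated counts were summed per gene, rounded, filtered with filterByExpr (13221 of 35968 genes kept) and normalized by TMM (factors 0.923 to 1.17). The quasi-likelihood test of edgeR 4.0.16 (R 4.3.3) compared the groups, and adjusted p-values (Benjamini-Hochberg) under 0.1 were called. A standard error is the log2 fold change over the square root of F. An exact two-sided permutation test of 3 libraries against 3 cannot go below 0.1. Intervals use the fit's degrees of freedom and cover the spread between libraries. A floor of 3 counts covers counting error only. Depth was 23978881 to 35694987 estimated counts.

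Alternatives were DESeq2 1.42.0, its size factors, library size, limma 3.58.1 on log2(TPM + 0.5), with 0.1 and 1 as other pseudocounts, other filters, a length offset, coding transcripts only, the replicate number as a block, MO2 and MC3 as a covariate, leaving out each library, and thresholds of 0.05 and 0.01. The scripts were tested on simulated counts. The members, gene lists and tests were chosen with earlier results of these data known. All 9 members, list genes past the threshold or with groups apart, Gys2, Pygm and 5 genes of like pattern were named, and 1 gene of the lists is not reported here. Genes with few counts or overlapping groups in these lists, the transcripts, ratios and overlapping genes were picked after their values were seen.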

Additional observations from a re-analysis of the deposited data

How the results depend on the processing

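The log2 fold changes of Gys1, Gbe1, Pgm1 and Pygl were positive in each of the 18 other fits, whereas which of them passed depended on the setting. Of the 9 glycogen genes, 2 passed in the main comparison, against 4 with library size alone, DESeq2's Wald test, limma on log2(TPM + 0.5) or log2(TPM + 0.1), or a covariate for MO2 and MC3. Both counts include Pygl, whose call is a description because it passed the filter only through its co-culture libraries. Of the other 7 tested genes, 1 passed in the main comparison. Of all 9, 0 passed with coding transcripts only, where 3 genes of all passed, and 0 at thresholds of 0.05 or 0.01, where 2 and 0 of all genes passed. Genes whose excess in MC2 was over 3 times the average in MC1 and MC3 were taken off the main calls without a new fit. That left 1 glycogen gene (Gys1) and 206 genes of all. The rule was chosen after the values were seen. With factors of 5.72 in Pygl and 0.793 in Gys1 the outcome was fixed in advance, so it is no test of either gene. Leaving out each library gave from 0 to 4 glycogen genes and from 0 to 549 of all genes. Over all genes, 579 passed, and 1268 did with DESeq2, 356 with limma on log2(TPM + 0.5), 224 on log2(TPM + 1) and 3999 with the covariate. The other glycogen genes, with 0 in the main comparison and 0 with each library left out, had 3 with DESeq2 and 4 with the covariate, and the UDP-glucose users 1 and 4. The cause of these shifts was not tested.

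Of the 144 other fits of the 8 tested members, 13 changed the sign, all in Gyg, Ugp2, Pgm2 and Pygb. With each library left out, the log2 fold change ranged from -0.26 to 0.20 in Gyg, -0.046 to 0.18 in Ugp2, -0.11 to 0.13 in Pgm2 and -0.062 to 0.14 in Pygb. That of Pgm2 was also positive with DESeq2 size factors (0.0063), DESeq2's test (0.0064) and coding transcripts only (0.041). No scaling moved the median of all genes by more than 0.1.

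With the replicate number as a block, 2 glycogen genes passed (Gys1, adjusted p = 0.076, and Pygl, adjusted p = 0.0184, by edgeR), 0 of the other glycogen genes, 0 of the UDP-glucose users and 444 of all genes. The call of Pygl is a description here too, since it passed the filter only through its co-culture libraries. The correlation across genes of deviations from the group mean was 0.532, -0.291 and -0.516 for same-numbered libraries and 0.73 for MO2 with MC3, so the numbers were not taken as pairs, and not every library correlated best with its own number. Members with under 10 counts in a group have few reads to compare, and every member has only 3 libraries per group. Which of these limited a call was not tested.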

Other observations

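UDP-glucose, the product of Ugp2, also feeds routes other than glycogen, and 13 genes of those routes were followed. Of the 12 tested, 0 passed the edgeR quasi-likelihood comparison, against 4.38% of all genes tested, and 1 had an unadjusted p under 0.05, against 14.3%. DESeq2's Wald test called 1, against 1268 of the 13221 genes tested, and limma on log2(TPM + 0.5) called 0, against 356. The log2 fold change was positive in 6 and negative in 6, with a median of -0.0089. Ugcg, which encodes the enzyme that transfers glucose to ceramide, had 23.3, 31.3 and 19.0 CPM in MS-5 only and 40.4, 33.1 and 57.2 CPM in co-culture. Its groups were apart on this scale, with a log2 fold change of 0.83 ± 0.27 (SE; adjusted p = 0.216). Uggt1, whose product adds glucose to misfolded glycoproteins in the endoplasmic reticulum, was lower in CPM in each co-culture library, by a log2 fold change of -0.27 ± 0.15 (SE; adjusted p = 0.513). In TPM the groups of both genes overlapped. DESeq2's Wald test called Ugcg (adjusted p = 0.0832). With MO2 and MC3 as a covariate, edgeR called Ugcg as higher (adjusted p = 0.0138) and Uggt1 as lower (adjusted p = 0.0548). In that fit 30.2% of all genes tested passed.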
